A study of Mus musculus with 12 samples.

Results

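Interferon response genes and the immunoproteasome were followed through whole livers of 2-month-old mice. The set holds 45 mouse genes chosen by symbol: genes that interferon is known to induce, the catalytic subunits of the immunoproteasome and the genes that load its peptides on MHC class I. Of the 45 genes, 44 had a probe named for them in the annotation used here (all but Ifi44), and 41 were among the 10711 genes tested. Ifit1, Xaf1 and Iigp1 had probes that did not reach the detection filter, with Ifit1 and Iigp1 detected on no array and Xaf1 on 1 control array.

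RNA of 12 livers was hybridised to Illumina MouseWG-6 v2.0 BeadChips, 4 livers a group. All 12 mice carried floxed Atg7 on both alleles (FF); Atg7 encodes an enzyme that conjugates ubiquitin-like proteins to form autophagosomes. The Alb-Cre:Atg7 FF group added Cre under the albumin promoter, which is active in hepatocytes, and consisted of 4 males. The Olig1-Cre:Atg7 FF group carried Cre driven by Olig1, a gene best known from the oligodendrocyte lineage, and held 1 male (replicate 2) and 3 females. The controls carried no Cre: replicates 1 and 3 came from the Alb-Cre line and replicates 2 and 4 from the Olig1-Cre line, and replicate 1 was the only male. The sources used here do not state in which liver cells Olig1-Cre is active. Every group had 2 arrays on each of 2 chips, and chip 1 carried both lone males. In this design sex and Alb-Cre cannot be told apart except through those 2 males.

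Type I and type III interferons signal through their receptors to a complex that holds STAT2 and IRF9 and binds the interferon-stimulated response element, while genes induced by interferon gamma often carry the gamma-activated site. The induced genes sense foreign nucleic acid, block viral replication and amplify the response. The immunoproteasome replaces the catalytic subunits of the constitutive proteasome and changes which peptides reach MHC class I. In liver, hepatocytes and Kupffer cells both respond to interferon.

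Upstream sequence of several genes is shown so that genes with and without an interferon motif can be set beside their changes. RefSeq promoter windows (build GRCm38.p6, 250 bases before to 50 after the start site) were matched by symbol for 34 of the 45 genes. An interferon-stimulated response element was searched on both strands as GAAA, any 2 bases and GAAA, and a gamma-activated site as TTCNNNGAA, which reads the same on both strands. The first was found in 14 of the 34 windows (41.2%), against 943 of 27025 windows of all genes (3.49%), and the second in 6 of 34 (17.6%) against 2288 of 27025 (8.47%). Among the 15 windows of genes higher in both Cre groups 5 held the response element and 1 the gamma-activated site, and among the 10 of genes called in neither, 6 and 2. The only window in which both motifs overlap is that of Bst2. A match describes the letters of the window and is not a measured site.

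Stretches of 150 bases that end at the start site are given 5′ to 3′ on the strand of the gene, with the matched motifs in capitals. Isg15 (chr4:156200819-156200968, minus strand) and Rsad2 (chr12:26456453-26456602, minus strand) rose in both Cre groups, Igtp (chr11:58199406-58199555, plus strand) holds both motifs, Ubd (chr17:37193742-37193891, plus strand) had the largest change and neither motif, and Irgm1 (chr11:48871421-48871570, minus strand) and B2m (chr2:122147537-122147686, plus strand) hold the response element and passed no test.
Isg15: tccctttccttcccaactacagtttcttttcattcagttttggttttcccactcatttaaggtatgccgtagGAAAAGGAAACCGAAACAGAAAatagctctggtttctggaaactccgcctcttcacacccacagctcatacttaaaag
Rsad2: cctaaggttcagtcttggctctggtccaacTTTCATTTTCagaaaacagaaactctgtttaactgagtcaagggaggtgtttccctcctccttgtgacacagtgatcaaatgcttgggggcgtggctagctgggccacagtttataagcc
Igtp: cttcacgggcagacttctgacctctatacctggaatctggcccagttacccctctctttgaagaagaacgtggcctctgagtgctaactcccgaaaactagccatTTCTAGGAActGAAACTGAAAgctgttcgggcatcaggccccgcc
Ubd: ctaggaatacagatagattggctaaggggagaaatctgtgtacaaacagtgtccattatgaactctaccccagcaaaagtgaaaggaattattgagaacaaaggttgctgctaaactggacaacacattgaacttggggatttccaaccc
Irgm1: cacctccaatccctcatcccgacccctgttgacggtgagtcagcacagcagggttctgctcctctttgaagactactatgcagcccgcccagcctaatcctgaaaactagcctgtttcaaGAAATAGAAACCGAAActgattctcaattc
B2m: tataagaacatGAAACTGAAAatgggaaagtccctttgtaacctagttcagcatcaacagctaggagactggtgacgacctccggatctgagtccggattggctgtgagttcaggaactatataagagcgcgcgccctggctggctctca

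Psmb9 and Tap1 lie head to head on chromosome 17, and the 225 bases between their start sites (chr17:34187331-34187555, strand of Tap1) serve as the upstream sequence of both. The stretch holds neither motif.
Psmb9 to Tap1: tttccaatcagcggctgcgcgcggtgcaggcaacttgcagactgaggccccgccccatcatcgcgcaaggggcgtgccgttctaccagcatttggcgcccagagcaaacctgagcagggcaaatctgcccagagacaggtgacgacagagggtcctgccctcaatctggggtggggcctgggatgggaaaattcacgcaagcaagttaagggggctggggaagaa

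The deletion itself could not be checked. The only Atg7 probe was detected, at a detection p under 0.05, on 2 arrays, control 2 (log2 signal 5.70) and Alb-Cre 3 (4.62), and read between 4.23 and 4.56 on the other 10. Olig1-Cre 2 and Alb-Cre 3 stood apart within their groups. Of the 41 genes, 27 were lowest in Olig1-Cre 2 among Olig1-Cre livers and 34 in Alb-Cre 3 among Alb-Cre livers, against 32.5% and 31.5% of all tested genes. Among controls, control 1 was lowest for 19 of the 41 genes and highest for 8, against 35.8% and 29.2% of all tested genes. Detection was also lowest in control 1, where 34.2% of probes were detected, against 36.9% to 43.9% elsewhere.

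Of the 41 tested genes, 24 rose in Alb-Cre and 26 in Olig1-Cre livers, and none fell; Ubd, Oasl1 and Rsad2 led in both. In Alb-Cre livers 24 of the 41 tested genes were higher than in controls and 0 lower (limma, Benjamini-Hochberg adjusted p under 0.05 over 10711 genes; 28 at an unadjusted p under 0.05), where 19.5% of all tested genes were higher and 15.3% lower. In Olig1-Cre livers 26 were higher and 0 lower (31 unadjusted), against 12.8% and 8.47% of all genes. Their median log2 fold change was 0.86 in Alb-Cre and 0.96 in Olig1-Cre livers, while the medians of all tested genes were -0.0069 and -0.00018. Both comparisons use the same 4 controls: 21 genes were called in both, 3 in Alb-Cre livers only (Parp14, Ifi35 and Igtp), 5 in Olig1-Cre livers only (Zbp1, Ifit3, Ifi47, Psmb8 and Psmb10) and 12 in neither.

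The size of the change ranged widely. Among the called genes, 17 were more than 2-fold and 6 more than 4-fold higher in Alb-Cre livers, and 18 and 6 in Olig1-Cre livers. The share of all tested genes past these fold cuts was not computed, so the counts describe sizes only. All 4 Alb-Cre livers exceeded all 4 controls for 19 of the 41 genes (19.4% of all tested genes did so), and all 4 Olig1-Cre livers did for 26 (14.1% of all genes). For 0 genes of the set were all Cre livers below all controls, against 15.7% (Alb-Cre) and 9.78% (Olig1-Cre) of all genes. When arrays were scaled to 1 median in place of quantile normalization, the median of all genes rose by 0.59 (Alb-Cre) and 0.40 (Olig1-Cre), the whole-array calls went from 2088 higher and 1644 lower to 4854 and 163 in Alb-Cre livers and from 1366 and 907 to 1734 and 38 in Olig1-Cre livers, and 36 and 28 genes of the set were higher. By role, this scaling called 4 of 4 sensors, 3 of 4 transcription factors, 5 of 5 GTPases, 3 of 3 immunoproteasome subunits and 2 of 4 peptide-loading genes higher in Alb-Cre livers, 3, 1, 2, 3 and 1 in Olig1-Cre livers, and 15 of 15 antiviral effectors in both. The medians of the set were then 1.65 and 1.47, which is 1.06 and 1.07 above those shifts.

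**Figure D1:**
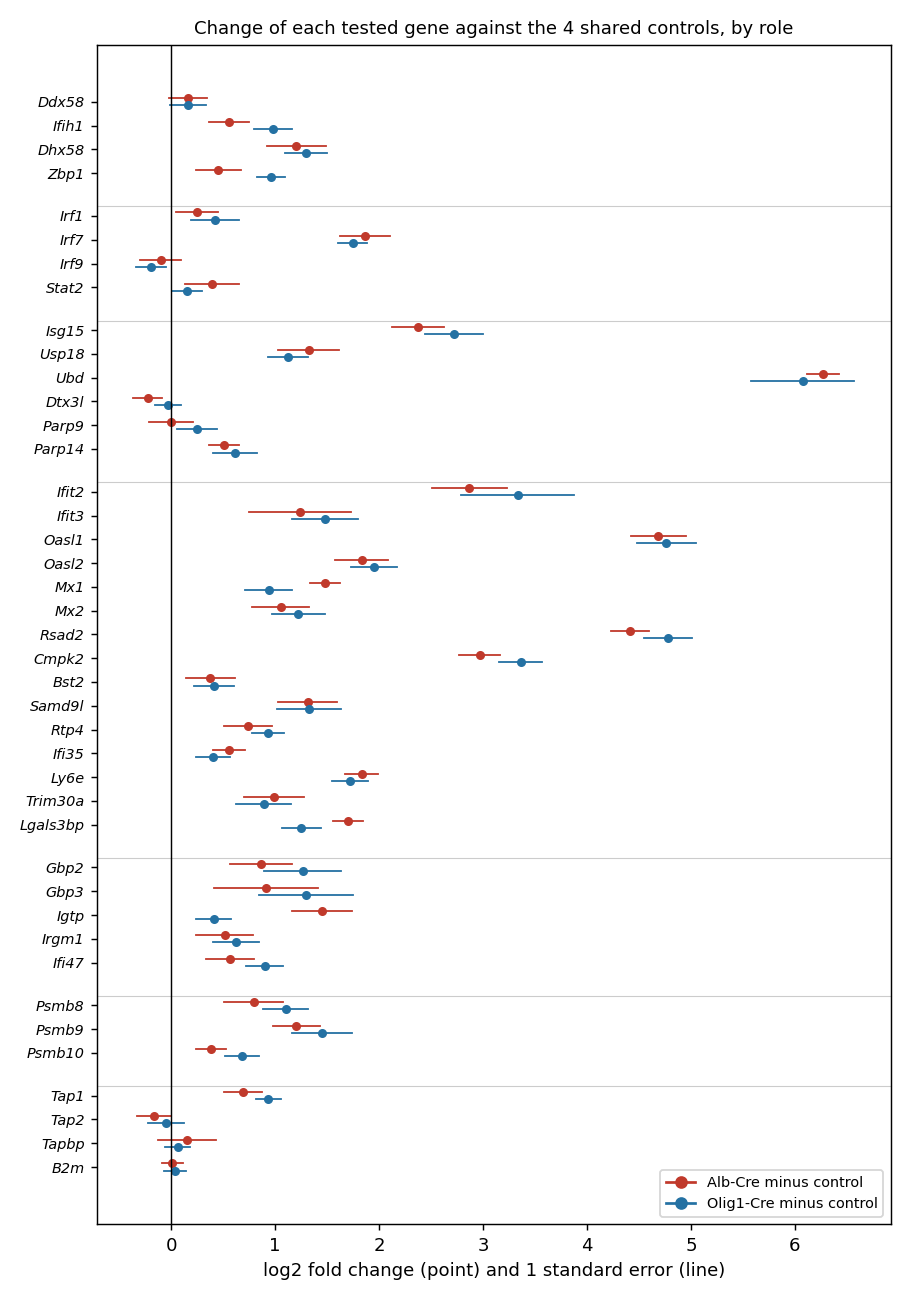
Log2 fold change (x axis) of each of the 41 tested genes (y axis, grouped by role) in Alb-Cre (red) and Olig1-Cre (blue) livers against the same 4 controls; points are estimates and lines 1 standard error. Ubd, Oasl1 and Rsad2 lie farthest to the right in both colours, while Dtx3l, Irf9 and Tap2 lie below 0 (above 0 in both groups with arrays scaled to 1 median).

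Chip and sex bear on these counts. With the chip as a block, 23 and 26 genes were higher in Alb-Cre and Olig1-Cre livers (2117 and 1329 of all tested genes). Within chip 1 the counts were 19 and 3, and within chip 2 they were 13 and 23, each from 2 livers against 2. Calls over all tested genes fell as well, from 2088 and 1366 higher to 1132 and 16 within chip 1 and 928 and 767 within chip 2. The 3 genes called within chip 1 in Olig1-Cre livers were Rsad2, Oasl1 and Cmpk2. With sex as a covariate 20 and 29 genes were higher (1310 and 1637 of all tested genes), the Alb-Cre estimate then being set by control 1 alone. With males alone, control 1 and Olig1-Cre 2 are lone livers, so only sizes are given. Olig1-Cre 2 exceeded control 1 in log2 signal by 4.66 (Ubd), 4.23 (Rsad2), 3.73 (Oasl1) and 3.095 (Cmpk2), 1 liver against 1. Of the called genes, 18 in Alb-Cre and 21 in Olig1-Cre livers stayed called whichever 1 array was left out. Those that lost the call were Rtp4, Trim30a, Gbp2, Ifih1, Parp14 and Ifi35 in Alb-Cre livers and Mx1, Samd9l, Trim30a, Gbp2 and Psmb10 in Olig1-Cre livers. Counts with 1 array left out ranged from 20 to 30 (30 without Alb-Cre 3) and from 21 to 30 (30 without Olig1-Cre 2).

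Most macrophage markers rose in the same groups, while markers of other liver cells were mixed. For the counts below, 19.5% of all tested genes were higher and 15.3% lower in Alb-Cre livers, and 12.8% and 8.47% in Olig1-Cre livers. Of 13 tested Kupffer cell and macrophage markers, 11 were higher in Alb-Cre and 8 in Olig1-Cre livers, and their summed normalized signal ran from 2970 to 4588 in controls, 7793 to 8712 in Alb-Cre and 5287 to 9021 in Olig1-Cre livers. Cd14 led them, at 2.85 ± 0.22 in Alb-Cre livers (adjusted p = 9.66e-06) and 2.47 ± 0.43 in Olig1-Cre livers (adjusted p = 0.00509), whereas the Kupffer cell markers Timd4 and Marco passed no test. Of 7 T and NK cell markers 1 was higher and 1 lower in Alb-Cre livers, and 3 were higher and 1 lower in Olig1-Cre livers, with summed signals of 480 to 618 in controls, 415 to 587 in Alb-Cre and 462 to 637 in Olig1-Cre livers. Dendritic cell markers were called for 1 of 3 in both, B and plasma cell markers for 0 of 1 and neutrophil markers for 1 and 3 of 5. In bulk liver, more cells of a type and more RNA per cell cannot be told apart, and the part of these cells in the interferon genes was not tested. Of 7 sinusoidal endothelial markers 1 (Lyve1) was higher and 2 (Stab2 and Oit3) lower in both. Of 8 stellate cell and fibroblast markers 5 and 1 were higher, and of 4 cholangiocyte markers 3 and 1. Of 10 hepatocyte markers, Fabp1, Tat and Fgb were detected on no array, and the Alb probe read only 4.44 to 5.78 and was detected on 10 of 12 arrays. The summed signal of the 7 tested (53410 to 71200) was carried by bright probes such as Apoc3, Apoa1 and Ttr, and 3 of the 7 (Alb, Cyp2e1 and Serpina1a) were lower in Alb-Cre and 0 in Olig1-Cre livers. With arrays scaled to 1 median, only Cyp2e1 among hepatocyte markers was lower in Alb-Cre livers and 0 in Olig1-Cre livers, endothelial markers were 4 and 1 higher and 0 lower, and T and NK cell markers 3 higher and 0 lower in both.

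Of 4 sensors of foreign nucleic acid, 2 rose in Alb-Cre livers (Dhx58 and Ifih1) and 3 in Olig1-Cre livers (these and Zbp1). Dhx58 (LGP2, a regulator of RIG-I and MDA5 signalling) read 6.39, 6.78, 7.04 and 6.34 in controls 1 to 4, 8.13, 8.25, 6.94 and 8.06 in Alb-Cre livers 1 to 4 and 8.43, 7.70, 7.86 and 7.76 in Olig1-Cre livers 1 to 4 on the log2 scale. Alb-Cre 3 was the only Cre liver that overlapped the controls. The log2 fold changes were 1.20 ± 0.28 in Alb-Cre livers (adjusted p = 0.00804) and 1.30 ± 0.21 in Olig1-Cre livers (adjusted p = 0.00331), from limma as in all that follow. Ifih1 (MDA5, a sensor of long double-stranded RNA) read 4.39, 5.14, 4.98 and 4.89 in controls 1 to 4, 5.15, 5.17, 5.56 and 5.75 in Alb-Cre livers 1 to 4 and 5.62, 5.61, 6.04 and 6.04 in Olig1-Cre livers 1 to 4. All 8 Cre livers exceeded all 4 controls, by 0.56 ± 0.20 in Alb-Cre livers (adjusted p = 0.0494) and 0.98 ± 0.18 in Olig1-Cre livers (adjusted p = 0.00681).

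Zbp1, a sensor of Z-form nucleic acid, read 4.66, 4.45, 4.72 and 4.68 in controls 1 to 4, 4.95, 5.73, 4.59 and 5.06 in Alb-Cre livers 1 to 4 and 5.86, 5.42, 5.41 and 5.66 in Olig1-Cre livers 1 to 4. Alb-Cre 3 lay among the controls. The changes were 0.45 ± 0.21 in Alb-Cre livers (adjusted p = 0.124) and 0.96 ± 0.14 in Olig1-Cre livers (adjusted p = 0.00212), and its 3 probes differed in sign in Alb-Cre livers (0.45, 0.22 and -0.19). In Olig1-Cre livers the same probes gave 0.96, 0.36 and 0.19. The first was detected on 1 of 4 control arrays. Only the last was detected on all 12 arrays, and there Olig1-Cre livers (6.07 to 6.43) overlapped the controls (5.88 to 6.22). Ddx58 (RIG-I, which binds viral RNA with a 5′ triphosphate) read 5.25, 5.89, 5.89 and 5.43 in controls 1 to 4, 5.86, 5.94, 5.44 and 5.87 in Alb-Cre livers 1 to 4 and 5.70, 5.89, 5.60 and 5.92 in Olig1-Cre livers 1 to 4. The groups overlapped, and its changes were 0.16 ± 0.18 in Alb-Cre livers (adjusted p = 0.535) and 0.16 ± 0.17 in Olig1-Cre livers (adjusted p = 0.528), with kept probes at -0.24 and 0.56 in Alb-Cre livers.

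Of 4 transcription factors, Irf7 alone passed the test, in both Cre groups. Irf7, the factor that amplifies interferon transcription, read 6.66, 6.45, 6.45 and 6.42 in controls 1 to 4, 8.44, 8.67, 7.56 and 8.76 in Alb-Cre livers 1 to 4 and 8.53, 7.96, 8.30 and 8.17 in Olig1-Cre livers 1 to 4. All 8 Cre livers lay above all controls. It rose by 1.86 ± 0.24 in Alb-Cre livers (adjusted p = 0.000238) and 1.75 ± 0.14 in Olig1-Cre livers (adjusted p = 0.00012), a fold of 3.64 and 3.36. Stat2, a factor of the response to type I interferon, read 7.21, 7.08, 7.13 and 6.76 in controls 1 to 4, 7.92, 7.86, 6.62 and 7.35 in Alb-Cre livers 1 to 4 and 7.44, 7.16, 7.24 and 6.94 in Olig1-Cre livers 1 to 4. The groups overlapped, at 0.39 ± 0.26 in Alb-Cre livers (adjusted p = 0.276) and 0.15 ± 0.15 in Olig1-Cre livers (adjusted p = 0.49). Irf9, which brings its complex to DNA, read 7.35, 7.51, 7.64 and 7.24 in controls 1 to 4, 7.53, 7.70, 6.74 and 7.35 in Alb-Cre livers 1 to 4 and 7.16, 7.41, 6.97 and 7.42 in Olig1-Cre livers 1 to 4; its changes were -0.10 ± 0.20 in Alb-Cre livers (adjusted p = 0.728) and -0.19 ± 0.14 in Olig1-Cre livers (adjusted p = 0.367) and its 2 probes had opposite signs. Irf1 gave 0.25 ± 0.20 in Alb-Cre livers (adjusted p = 0.368) and 0.42 ± 0.23 in Olig1-Cre livers (adjusted p = 0.22). Its probes differed in size: the 2 brightest gave 0.39 and 0.41 in Alb-Cre livers and 0.84 and 0.89 in Olig1-Cre livers. On both, all Olig1-Cre livers lay above all controls (10.71 to 10.92 against 9.40 to 10.62, and 8.92 to 9.38 against 7.98 to 8.89). The dimmer probes gave 0.30, 0.39 and 0.38 in Olig1-Cre livers.

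Of 6 ubiquitin-like and ADP-ribosyl genes, 4 rose in Alb-Cre and 3 in Olig1-Cre livers, Ubd by more than any other gene of the set. Ubd (FAT10, a ubiquitin-like protein that sends its targets to the proteasome) read 4.41, 4.81, 4.76 and 4.88 in controls 1 to 4, 10.79, 11.31, 10.84 and 11.02 in Alb-Cre livers 1 to 4 and 11.48, 9.07, 11.91 and 10.71 in Olig1-Cre livers 1 to 4. The probe was detected on 3 of 4 control arrays, and the lowest Cre liver was the male Olig1-Cre 2. Ubd rose by 6.27 ± 0.16 in Alb-Cre livers (adjusted p = 3.17e-09) and 6.07 ± 0.50 in Olig1-Cre livers (adjusted p = 0.000124), which is 77.2-fold and 67.4-fold. Isg15, the ubiquitin-like modifier that interferon induces, read 7.52, 7.23, 7.60 and 7.13 in controls 1 to 4, 9.76, 10.44, 9.07 and 9.71 in Alb-Cre livers 1 to 4 and 10.77, 9.24, 10.09 and 10.25 in Olig1-Cre livers 1 to 4. Every Cre liver lay above every control, by 2.38 ± 0.25 in Alb-Cre livers (adjusted p = 7.48e-05) and 2.72 ± 0.28 in Olig1-Cre livers (adjusted p = 0.000373).

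Usp18, the protease that removes ISG15 and damps the interferon receptor, rose by 1.32 ± 0.30 in Alb-Cre livers (adjusted p = 0.00631) and 1.13 ± 0.20 in Olig1-Cre livers (adjusted p = 0.00484). Parp14, an ADP-ribosyltransferase, changed by 0.51 ± 0.14 in Alb-Cre livers (adjusted p = 0.0201) and 0.61 ± 0.21 in Olig1-Cre livers (adjusted p = 0.0624). Olig1-Cre 2 was the liver that overlapped the controls. The median followed a dim probe: its 3 probes gave 0.46, 0.51 and 1.28 in Alb-Cre livers and 0.24, 0.61 and 1.17 in Olig1-Cre livers. On the last and brightest, detected on all 12 arrays, Olig1-Cre livers (9.67 to 10.09) lay above controls (8.47 to 8.93). Dtx3l and Parp9, partners in 1 ubiquitin ligase complex, passed no test. Dtx3l read 7.13, 7.13, 6.84 and 7.04 in controls 1 to 4, 6.59, 6.89, 6.69 and 7.07 in Alb-Cre livers 1 to 4 and 6.94, 6.84, 7.10 and 7.15 in Olig1-Cre livers 1 to 4. Its values overlapped in all groups, its changes were -0.23 ± 0.14 in Alb-Cre livers (adjusted p = 0.241) and -0.029 ± 0.12 in Olig1-Cre livers (adjusted p = 0.889), and its probes had opposite signs.

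Of 15 tested antiviral effectors, 13 were higher in each Cre group, with medians of 1.48 and 1.33. Oasl1, a 2′-5′ oligoadenylate synthetase-like protein that represses Irf7 translation in mouse, read 6.55, 6.19, 6.17 and 5.26 in controls 1 to 4, 10.76, 10.91, 10.25 and 11.01 in Alb-Cre livers 1 to 4 and 11.17, 10.28, 11.08 and 10.70 in Olig1-Cre livers 1 to 4. All 8 Cre livers lay above the controls. Oasl1 rose by 4.69 ± 0.27 in Alb-Cre livers (adjusted p = 1.5e-06) and 4.76 ± 0.28 in Olig1-Cre livers (adjusted p = 1.12e-05), or 25.8-fold and 27.2-fold. Rsad2 (viperin, which makes a chain-terminating nucleotide) read 7.98, 7.76, 8.53 and 7.73 in controls 1 to 4, 12.60, 12.43, 12.31 and 12.32 in Alb-Cre livers 1 to 4 and 12.78, 12.21, 13.04 and 13.08 in Olig1-Cre livers 1 to 4. All Cre livers lay above all controls, and Rsad2 rose by 4.42 ± 0.18 in Alb-Cre livers (adjusted p = 1.16e-07) and 4.78 ± 0.23 in Olig1-Cre livers (adjusted p = 4.17e-06), 21.4-fold and 27.5-fold.

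Cmpk2, a mitochondrial nucleotide kinase that neighbours Rsad2 on chromosome 12, rose by 2.97 ± 0.20 in Alb-Cre livers (adjusted p = 4.15e-06) and 3.36 ± 0.21 in Olig1-Cre livers (adjusted p = 1.6e-05). Ifit2, which restricts viral translation, rose by 2.87 ± 0.36 in Alb-Cre livers (adjusted p = 0.000214) and 3.33 ± 0.55 in Olig1-Cre livers (adjusted p = 0.00375). Both were separated from the controls in every liver. Ifit3, its partner, read 6.85, 8.07, 7.89 and 7.86 in controls 1 to 4, 8.92, 9.86, 7.32 and 9.53 in Alb-Cre livers 1 to 4 and 9.65, 8.59, 8.72 and 9.62 in Olig1-Cre livers 1 to 4. Alb-Cre 3 lay below 3 of the 4 controls, and the changes were 1.24 ± 0.49 in Alb-Cre livers (adjusted p = 0.073) and 1.48 ± 0.32 in Olig1-Cre livers (adjusted p = 0.0117).

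Mx1, a dynamin-like GTPase that traps influenza virus nucleoproteins, was not well above background on any control array and was detected on all 8 Cre arrays. Against the lowest detected signal of each control array, Mx1 was at least 2.16-fold higher in Alb-Cre and at least 1.48-fold higher in Olig1-Cre livers. The limma changes without that bound were 2.79-fold (adjusted p = 4.52e-05) and 1.91-fold (adjusted p = 0.0191). Olig1-Cre 2 (4.68) read the same as control 1 (4.68). Mx1 passed the detection filter only through the Cre arrays, so its calls, counted above, are no independent support. The other 7 effectors called in both groups, Oasl2, Ly6e, Lgals3bp, Samd9l, Mx2, Trim30a and Rtp4, ran from 0.74 to 1.83 in Alb-Cre and from 0.89 to 1.95 in Olig1-Cre livers. Ifi35 was called in Alb-Cre livers only (0.56 ± 0.15 in Alb-Cre and 0.40 ± 0.16 in Olig1-Cre livers, adjusted p = 0.018 and 0.101). Bst2 (tetherin) passed neither test, at 0.38 ± 0.24 in Alb-Cre livers (adjusted p = 0.244) and 0.41 ± 0.19 in Olig1-Cre livers (adjusted p = 0.147).

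**Figure D2:**
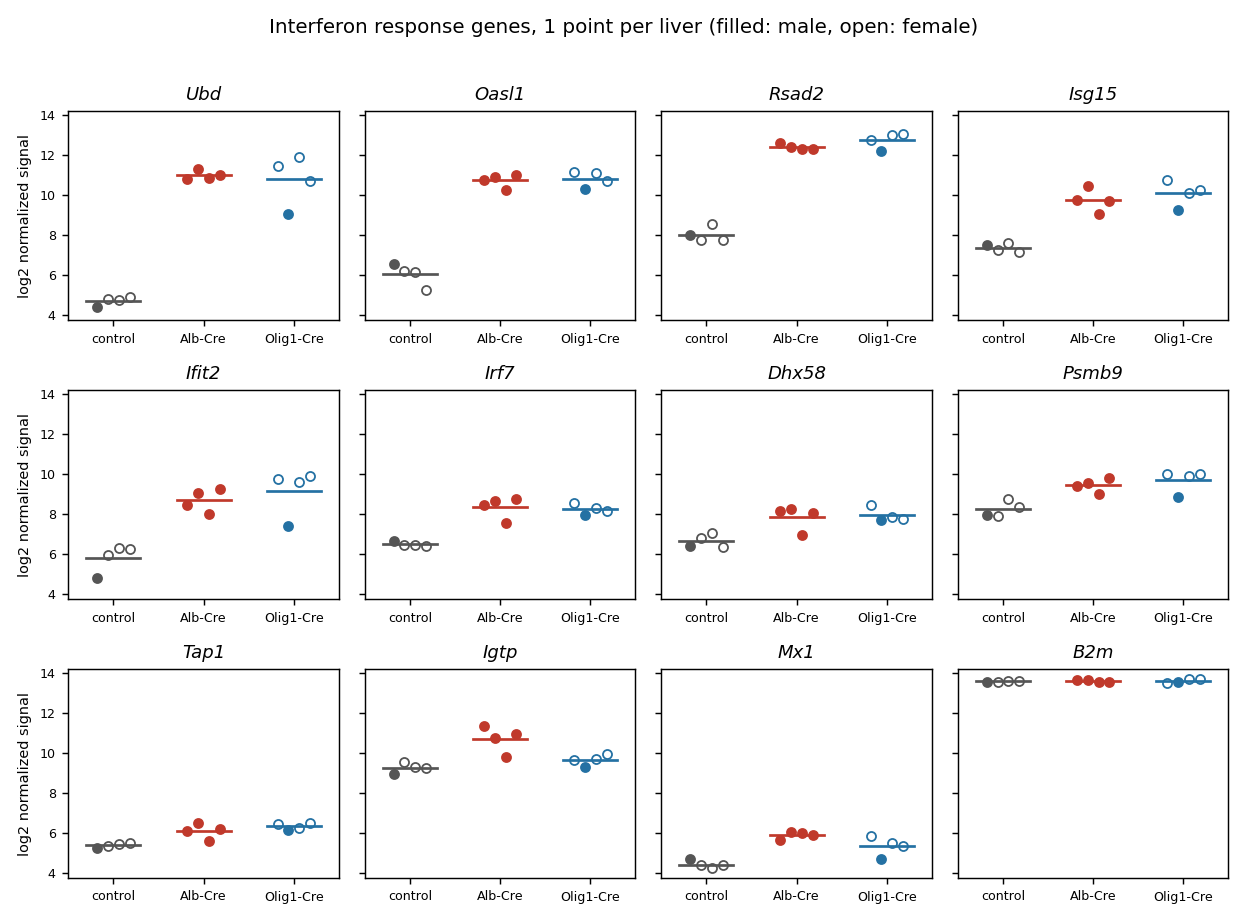
Log2 normalized signal (y axis) of 12 genes in each liver (points; filled male, open female) by group (x axis), with the group mean as a line. For Ubd the controls sit between 4.41 and 4.88 and the Cre livers between 9.07 and 11.91, with the male Olig1-Cre liver lowest, and B2m sits near 13.6 in every liver.

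Of 5 tested interferon-induced GTPases, which attack vacuoles that hold pathogens, Igtp and Gbp2 rose in Alb-Cre and Gbp2 and Ifi47 in Olig1-Cre livers. Igtp (Irgm3) read 8.94, 9.56, 9.27 and 9.26 in controls 1 to 4, 11.34, 10.76, 9.78 and 10.96 in Alb-Cre livers 1 to 4 and 9.67, 9.32, 9.71 and 9.95 in Olig1-Cre livers 1 to 4. All Alb-Cre livers were above all controls, while Olig1-Cre 2 lay among the controls. Its changes were 1.45 ± 0.29 in Alb-Cre livers (adjusted p = 0.00331) and 0.41 ± 0.17 in Olig1-Cre livers (adjusted p = 0.113). Gbp2 rose by 0.86 ± 0.30 in Alb-Cre livers (adjusted p = 0.0458) and 1.27 ± 0.37 in Olig1-Cre livers (adjusted p = 0.0365). Gbp3 read 6.34, 8.59, 8.07 and 8.52 in controls 1 to 4, 9.02, 9.22, 7.72 and 9.20 in Alb-Cre livers 1 to 4 and 9.22, 8.65, 9.13 and 9.73 in Olig1-Cre livers 1 to 4. Control 1 was the lowest of all livers, and the changes of 0.91 ± 0.50 in Alb-Cre livers (adjusted p = 0.182) and 1.30 ± 0.45 in Olig1-Cre livers (adjusted p = 0.0656) did not pass.

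Ifi47 (IRG-47) read 7.56, 8.16, 7.93 and 7.51 in controls 1 to 4, 8.37, 8.24, 7.86 and 8.94 in Alb-Cre livers 1 to 4 and 8.46, 8.61, 8.68 and 9.01 in Olig1-Cre livers 1 to 4. Alb-Cre 3 lay among the controls, and the changes were 0.56 ± 0.23 in Alb-Cre livers (adjusted p = 0.0829) and 0.90 ± 0.18 in Olig1-Cre livers (adjusted p = 0.00845). Irgm1, a regulator of the other GTPases and of autophagy, read 8.44, 9.30, 8.93 and 8.43 in controls 1 to 4, 9.33, 9.51, 8.55 and 9.76 in Alb-Cre livers 1 to 4 and 9.23, 9.23, 9.28 and 9.85 in Olig1-Cre livers 1 to 4. The groups overlapped. Irgm1 changed by 0.51 ± 0.27 in Alb-Cre livers (adjusted p = 0.174) and 0.62 ± 0.22 in Olig1-Cre livers (adjusted p = 0.0722), with 1 of its 3 probes at -0.076 and the others at 0.51 and 0.44 in Alb-Cre livers.

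Immunoproteasome subunits passed the test in Olig1-Cre livers for all 3 genes and in Alb-Cre livers for Psmb9 alone. All 3 estimates were positive in Alb-Cre livers, and 0 were called between the Cre groups. Psmb9 (LMP2) read 7.93, 7.91, 8.76 and 8.34 in controls 1 to 4, 9.39, 9.57, 8.99 and 9.81 in Alb-Cre livers 1 to 4 and 10.02, 8.83, 9.89 and 9.99 in Olig1-Cre livers 1 to 4. The Cre livers lay above the controls, at 1.20 ± 0.23 in Alb-Cre livers (adjusted p = 0.00241) and 1.45 ± 0.29 in Olig1-Cre livers (adjusted p = 0.0084). Psmb8 (LMP7) read 7.16, 7.84, 7.60 and 8.22 in controls 1 to 4, 8.73, 9.06, 7.77 and 8.43 in Alb-Cre livers 1 to 4 and 9.12, 8.53, 8.69 and 8.88 in Olig1-Cre livers 1 to 4. Alb-Cre 3 lay within the range of the controls, and the changes were 0.79 ± 0.29 in Alb-Cre livers (adjusted p = 0.0546) and 1.10 ± 0.22 in Olig1-Cre livers (adjusted p = 0.00866). Psmb10 (MECL-1) read 9.33, 9.66, 9.47 and 9.87 in controls 1 to 4, 9.76, 10, 10.07 and 10.03 in Alb-Cre livers 1 to 4 and 10.48, 9.92, 10.33 and 10.34 in Olig1-Cre livers 1 to 4. Its values overlapped the controls in Alb-Cre livers, and its changes were 0.38 ± 0.15 in Alb-Cre livers (adjusted p = 0.0648) and 0.69 ± 0.16 in Olig1-Cre livers (adjusted p = 0.0174).

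The constitutive counterparts of these subunits, Psmb5, Psmb6 and Psmb7, gave no call in Alb-Cre livers, and Psmb5 rose by 0.62 in Olig1-Cre livers (adjusted p = 0.0238). Psmb6 was below all controls in every Cre liver, at -0.18 ± 0.12 in Alb-Cre livers (adjusted p = 0.264) and -0.42 ± 0.16 in Olig1-Cre livers (adjusted p = 0.087). Of 7 constitutive subunits and activators 2 were higher in each comparison and 0 lower. Among all tested genes 19.5% were higher and 15.3% lower in Alb-Cre livers, and 12.8% and 8.47% in Olig1-Cre livers. Psme1 (PA28 alpha, an interferon-induced activator of the proteasome) read 10.15, 10.08, 10.07 and 10.46 in controls 1 to 4, 11.30, 11.26, 11.15 and 11.20 in Alb-Cre livers 1 to 4 and 11.51, 10.82, 11.31 and 11.34 in Olig1-Cre livers 1 to 4. Every Cre liver exceeded every control, at 1.04 ± 0.13 in Alb-Cre livers (adjusted p = 0.000187) and 1.05 ± 0.17 in Olig1-Cre livers (adjusted p = 0.00323). Psme2, its partner, changed by -0.37 ± 0.14 in Alb-Cre livers (adjusted p = 0.0661) and -0.27 ± 0.13 in Olig1-Cre livers (adjusted p = 0.151). Psme3 gave 0.51 ± 0.15 in Alb-Cre livers (adjusted p = 0.0224) and 0.21 ± 0.15 in Olig1-Cre livers (adjusted p = 0.345).

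**Figure D3:**
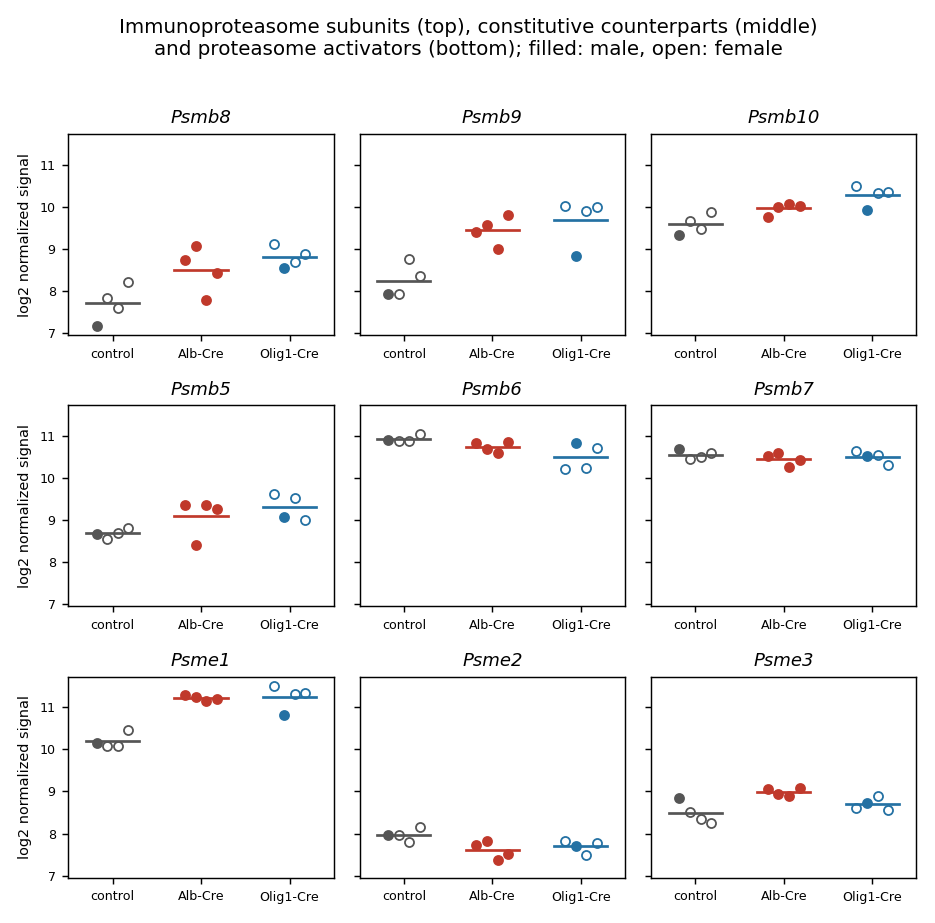
Log2 normalized signal (y axis) in each liver (points; filled male, open female; line, group mean) for the 3 immunoproteasome subunits, their 3 constitutive counterparts and 3 proteasome activators. Psmb9 and Psme1 are separated from the controls in both Cre groups, while the groups overlap for Psmb7 and all Cre livers lie below all controls for Psmb6.

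Of the genes that load peptides on MHC class I, 1 of 4 rose. Tap1, a subunit of the peptide transporter, read 5.23, 5.35, 5.45 and 5.51 in controls 1 to 4, 6.08, 6.47, 5.57 and 6.21 in Alb-Cre livers 1 to 4 and 6.42, 6.15, 6.24 and 6.49 in Olig1-Cre livers 1 to 4. All Cre livers were above all controls, at 0.69 ± 0.18 in Alb-Cre livers (adjusted p = 0.0145) and 0.94 ± 0.12 in Olig1-Cre livers (adjusted p = 0.00152). Its partner Tap2 read 8.41, 8.93, 8.64 and 8.995 in controls 1 to 4, 8.34, 8.63, 8.78 and 8.56 in Alb-Cre livers 1 to 4 and 8.65, 8.72, 8.39 and 9.01 in Olig1-Cre livers 1 to 4. The groups overlapped, at -0.17 ± 0.16 in Alb-Cre livers (adjusted p = 0.464) and -0.05 ± 0.17 in Olig1-Cre livers (adjusted p = 0.862). Tapbp (tapasin), which bridges the transporter and class I, read 6.41, 6.24, 6.37 and 6.06 in controls 1 to 4, 6.62, 7.27, 5.77 and 6.02 in Alb-Cre livers 1 to 4 and 6.39, 6.25, 6.40 and 6.28 in Olig1-Cre livers 1 to 4. Its changes were 0.15 ± 0.28 in Alb-Cre livers (adjusted p = 0.709) and 0.061 ± 0.12 in Olig1-Cre livers (adjusted p = 0.749), with its 2 probes at 0.49 and -0.18 in Alb-Cre livers. B2m, the light chain of class I, read 13.57, 13.54, 13.62 and 13.60 in controls 1 to 4, 13.63, 13.64, 13.54 and 13.57 in Alb-Cre livers 1 to 4 and 13.51, 13.58, 13.69 and 13.72 in Olig1-Cre livers 1 to 4. The groups overlapped, at 0.012 ± 0.10 in Alb-Cre livers (adjusted p = 0.939) and 0.04 ± 0.11 in Olig1-Cre livers (adjusted p = 0.818), and its 2 kept probes read 0.07 and -0.046 in Alb-Cre livers.

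Class I heavy chains and loading partners outside the set gave 4 of 15 higher and 3 lower in Alb-Cre and 4 higher and 2 lower in Olig1-Cre livers. Of all tested genes 19.5% were higher and 15.3% lower in Alb-Cre livers, and 12.8% and 8.47% in Olig1-Cre livers. H2-D1, a classical heavy chain, changed by 1.19 ± 0.26 in Alb-Cre livers (adjusted p = 0.00494) and 0.86 ± 0.35 in Olig1-Cre livers (adjusted p = 0.104), and H2-T10, a non-classical one, by 0.60 ± 0.14 in Alb-Cre livers (adjusted p = 0.00883) and 1.37 ± 0.26 in Olig1-Cre livers (adjusted p = 0.00775). H2-Q10, a secreted class I molecule of liver, fell, at -1.07 ± 0.20 in Alb-Cre livers (adjusted p = 0.0025) and -0.67 ± 0.19 in Olig1-Cre livers (adjusted p = 0.0305); with males alone its Olig1-Cre change was 0.037, and with arrays scaled to 1 median it was not called in either group, and the list then had 0 lower in Alb-Cre and 1 (Calr) in Olig1-Cre livers. Heavy chain genes are near-identical and their probes may share signal.

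Transcripts of the interferons were rarely detected. Of 18 listed ligand genes 17 had a probe, 13 were detected on no array and 3 were tested. Ifna6 alone was called, in Alb-Cre livers: it changed by -0.74 ± 0.13 in Alb-Cre livers (adjusted p = 0.00152) and -0.41 ± 0.15 in Olig1-Cre livers (adjusted p = 0.0764). With arrays scaled to 1 median its Alb-Cre change was -0.059 (adjusted p = 0.824), and Ifnab alone was called, higher in Alb-Cre livers. With that scaling 7 of 8 receptors and JAK-STAT genes were higher in Alb-Cre and 2 in Olig1-Cre livers, where Ifnlr1 lost its call. With quantile normalization 3 of the 8 rose in each comparison, against 19.5% (Alb-Cre) and 12.8% (Olig1-Cre) of all tested genes. They were Ifngr1 (1.16 ± 0.17 in Alb-Cre and 0.87 ± 0.16 in Olig1-Cre livers, adjusted p = 0.000552 and 0.00615), the ligand-binding chain for interferon gamma, Il10rb (0.59 ± 0.18 in Alb-Cre and 0.54 ± 0.17 in Olig1-Cre livers, adjusted p = 0.0262 and 0.0456), a chain shared by the receptors for interferon lambda and interleukin 10, and Ifnlr1. Ifnlr1, the specific chain for interferon lambda, was not well above background on any control array. It was at least 1.93-fold higher in Alb-Cre and at least 1.39-fold higher in Olig1-Cre livers. The limma changes without that bound were 2.52-fold (adjusted p = 6.68e-05) and 1.81-fold (adjusted p = 0.0329). Ifnlr1 passed the detection filter only through the Cre arrays, so its calls are no independent support. Ifnar2 (0.11 ± 0.19 in Alb-Cre and 0.30 ± 0.20 in Olig1-Cre livers, adjusted p = 0.695 and 0.301) and Ifngr2 (0.23 ± 0.20 in Alb-Cre and 0.22 ± 0.20 in Olig1-Cre livers, adjusted p = 0.409 and 0.442) passed no test.

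Nucleic acid sensing genes outside the set gave 6 of 15 higher and 1 lower in Alb-Cre livers (19.5% and 15.3% of all tested genes). In Olig1-Cre livers 5 were higher and 1 lower (12.8% and 8.47% of all tested genes). The lower gene was Mavs, the adaptor of RIG-I and MDA5, at -0.88 ± 0.14 in Alb-Cre livers (adjusted p = 0.000869) and -0.78 ± 0.21 in Olig1-Cre livers (adjusted p = 0.0298). With arrays scaled to 1 median the counts were 10 and 5 higher and 0 lower, without Mavs. Cgas, the cytosolic DNA sensor, read 4.89, 4.81, 4.56 and 4.88 in controls 1 to 4, 6.44, 6.29, 6.40 and 6.29 in Alb-Cre livers 1 to 4 and 6.62, 5.15, 6.33 and 5.86 in Olig1-Cre livers 1 to 4. Its lowest Cre value was again Olig1-Cre 2, and it rose by 1.57 ± 0.12 in Alb-Cre livers (adjusted p = 1.02e-05) and 1.20 ± 0.27 in Olig1-Cre livers (adjusted p = 0.0143). Tlr7, an endosomal sensor of single-stranded RNA, rose by 1.47 ± 0.23 in Alb-Cre livers (adjusted p = 0.000905) and 1.31 ± 0.19 in Olig1-Cre livers (adjusted p = 0.0021). Irf8, a factor of myeloid cells, rose by 1.02 ± 0.22 in Alb-Cre livers (adjusted p = 0.00535) and 1.26 ± 0.24 in Olig1-Cre livers (adjusted p = 0.0071). Of 4 negative feedback genes 1 and 3 were higher, including the phosphatase Ptpn2 (0.80 ± 0.16 in Alb-Cre and 0.76 ± 0.15 in Olig1-Cre livers, adjusted p = 0.0034 and 0.00793). Of 37 other interferon-stimulated genes 19 and 15 were higher and 0 lower, led by Oas1g (2.35 ± 0.34 in Alb-Cre and 2.31 ± 0.27 in Olig1-Cre livers, adjusted p = 0.000551 and 0.000736), Ifi27l2b (1.76 ± 0.32 in Alb-Cre and 1.88 ± 0.30 in Olig1-Cre livers, adjusted p = 0.0019 and 0.00325) and Ifi27l2a (1.70 ± 0.30 in Alb-Cre and 1.55 ± 0.31 in Olig1-Cre livers, adjusted p = 0.0018 and 0.00876).

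Alb-Cre and Olig1-Cre livers were then compared directly. None of the 41 genes passed the test (limma adjusted p under 0.05). At an unadjusted p under 0.05 there were 4 by limma and 1 by the methods' t-test. Of all genes 0.0747% were higher and 0.084% lower at the adjusted threshold. Groups were fully separated for 0 of the 41 genes, against 4.37% (higher) and 4.26% (lower) of all genes. The median difference was -0.12, and 13 of 41 genes were higher in Alb-Cre livers on average. The 4 were Igtp, Mx1, Ifih1 and Zbp1. Igtp differed by 1.045 (95% confidence interval 0.39 to 1.70; adjusted p = 0.165), Mx1 by 0.54 (0.035 to 1.05), Ifih1 by -0.42 (-0.82 to -0.026) and Zbp1 by -0.50 (-1.004 to -0.0037). For Ubd the difference was 0.20 with an interval of -0.93 to 1.32, for Rsad2 it was -0.36 with -0.79 to 0.065, and for Psmb9 it was -0.25 with -0.86 to 0.37.

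**Figure D4:**
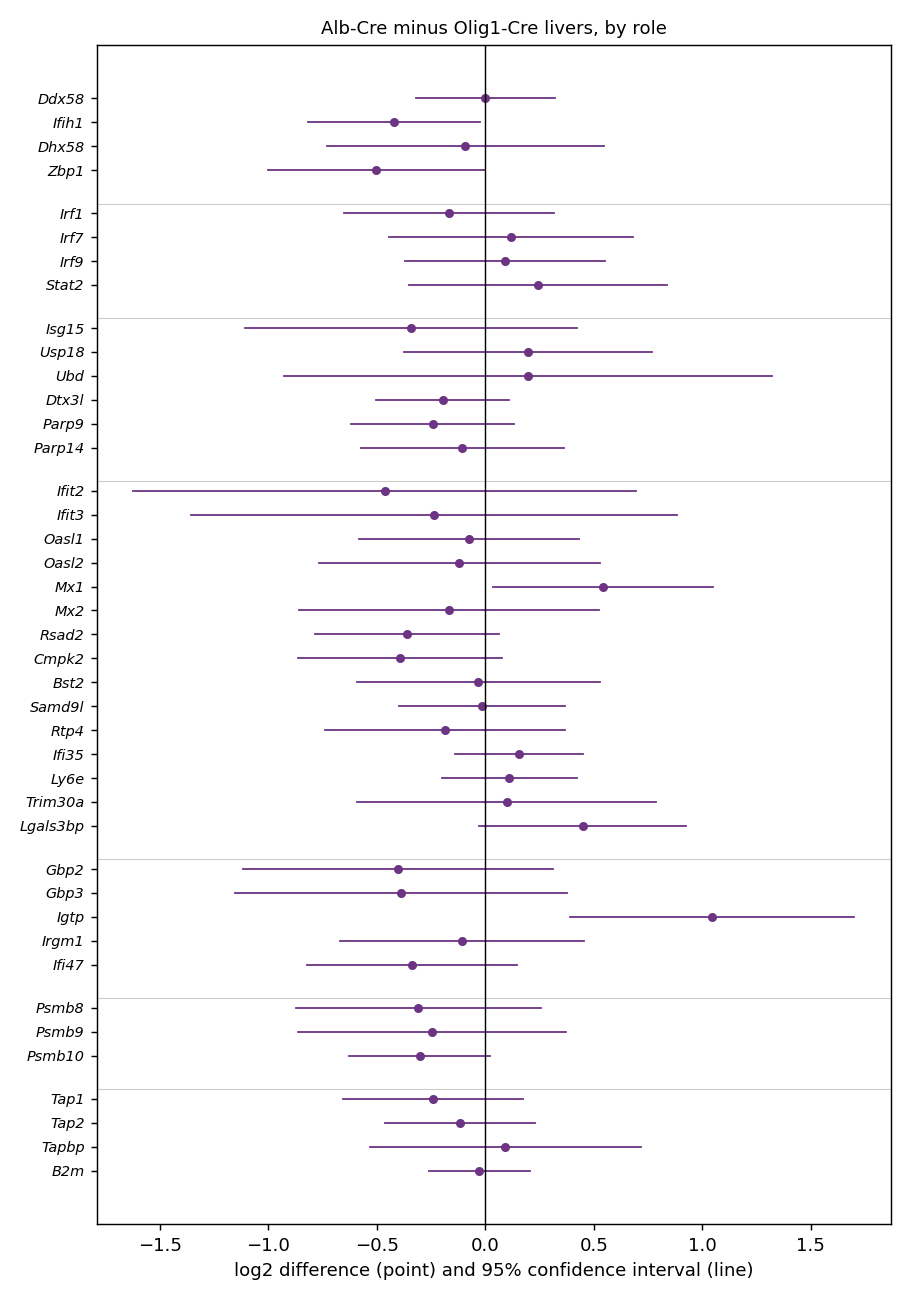
Log2 difference between Alb-Cre and Olig1-Cre livers (x axis; points, with 95% confidence intervals as lines) for each of the 41 genes (y axis, grouped by role). Igtp lies farthest from 0, at 1.045 with an interval of 0.39 to 1.70, and of the other intervals those of Mx1, Ifih1 and Zbp1 leave out 0.

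Since all Alb-Cre livers were male, the direct comparison also carries sex. With sex as a covariate the difference is that of the 4 Alb-Cre livers from Olig1-Cre 2 alone, the 1 male of its group. In that fit 2 genes were higher in Alb-Cre livers, Ubd by 1.92 (adjusted p = 0.0458) and Mx1 by 1.20 (adjusted p = 0.0458), and both calls rest on this 1 liver. The difference between Cre effects in the 2 lines, each against its own 2 controls, gave 0 of 41 genes (2 at an unadjusted p under 0.05) and 0 of all genes (759 unadjusted).

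Sex was examined after the data were seen, over the 4 controls and 4 Olig1-Cre livers (2 males against 6 females, group in the fit). Males were lower for 36 of 41 genes, with a median of -0.34. For all tested genes neither this count nor that at an unadjusted p was computed. Control 1 was the lowest control for 19 of the 41 genes and 35.8% of all tested genes. Olig1-Cre 2 was the lowest of its group for 27 of the 41 and 32.5% of all tested genes. Ifit2 alone passed (-1.88 ± 0.21, adjusted p = 0.00711), 14 genes had an unadjusted p under 0.05, and 0.215% of all genes were lower in males at the adjusted threshold. Both males were on chip 1, and sex was not separated from these 2 livers. Ifit2 read 4.77 in male control 1 and 5.95 to 6.30 in the female controls, and 7.37 in male Olig1-Cre 2 and 9.60 to 9.88 in the female Olig1-Cre livers. It was 8.02 to 9.22 in the 4 male Alb-Cre livers.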

How the data were processed

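Expression was measured in 12 whole livers. Groups, Cre lines, sexes, ages and chips come from the labels, which carry no replicate numbers; the numbers here follow accession order. The labels do not say which animals share a litter, so a p-value reflects only how these livers vary. The 45 genes and the other gene lists were chosen with earlier results of these data known.

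The deposited intensity of a probe is its average bead signal from GenomeStudio, which the authors neither background-subtracted nor normalized, and each comes with a deposited detection p-value from the negative control beads. The deposited log2 values, for which the submitters' processing notes name limma 3.22.1, differed by at most 0.027 from those computed here; the methods name a cubic spline, which was run as an alternative.

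Values were computed in R (4.3.3) with limma 3.58.1; tables were read with the package data.table (1.17.8). The neqc function corrected the background from the detection p-values, added an offset of 16 and quantile-normalized the arrays. Probes with a detection p under 0.05 on at least 4 arrays were kept (19528 of 45281). The platform annotation gave 34885 probes 1 symbol, 18 several and 10378 none. The median of a gene's kept probes was taken on each array. Pairs of groups were compared on their 8 arrays (lmFit, eBayes, two-sided; the 6 male arrays in 1 fit for males only), with Benjamini-Hochberg adjustment over 10711 genes. Genes given in every liver were the 2 largest changes of each role in Alb-Cre livers, any called lower, up to 6 called against controls in 1 Cre group only and those with probes of opposite sign; outside the set, up to 3 called genes a list and the receptors were named. The others (Irf1, Cmpk2, Ifit2, Usp18, Parp14, Parp9, Mx1, Gbp2, Bst2, Ifi35, Psmb5, Psmb6, Psme2, Mavs, Ifnab, Calr, Cd14 and the other markers among them) were named after their values were seen. The fit was tested on simulated data. Arrays give no count of molecules, so their number limits the precision. Alternatives covered normalization, filter, probe summary, sex, chip, controls, test and each array left out.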

Additional observations from a re-analysis of the deposited data

Results flagged for a closer look

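In 12 of 123 gene and group pairs, 1 liver stood far from the other 3 by Dixon's criterion; chance alone flags about 1 in 20. All values are log2 normalized signals.

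Alb-Cre 3 was the lowest of its group for Ddx58 (5.44 against 5.86 to 5.94), Dhx58 (6.94 against 8.06 to 8.25) and Gbp3 (7.72 against 9.02 to 9.22). Olig1-Cre 2, the male of its group, was the lowest for Parp9 (4.88 against 5.25 to 5.27), Parp14 (4.89 against 5.69 to 5.83), Ifit2 (7.37 against 9.60 to 9.88) and Psmb9 (8.83 against 9.89 to 10.02).

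Among Olig1-Cre livers Irgm1 was highest in replicate 4 (9.85 against 9.23 to 9.28). Among the controls Irf1 was highest in replicate 2 (7.33 against 6.60 to 6.69), Irf7 in replicate 1 (6.66 against 6.42 to 6.45) and Cmpk2 in replicate 3 (6.67 against 6.03 to 6.06), and Mx2 was lowest in replicate 4 (5.64 against 6.30 to 6.37). The part of sex, chip or RNA quality in these values was not tested.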

How the results depend on the processing

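The counts of genes called higher were 24 (Alb-Cre) and 26 (Olig1-Cre) against controls. With 1 array left out they ranged from 20 to 30 and from 21 to 30; in the comparison between the Cre groups and in that of the Cre effects between lines the range was 0 to 0. They differed by more than 1.5 times within chip 2 (13) and with males only (15) for Alb-Cre, and within chip 1 (3) and with males only (4) for Olig1-Cre. These settings hold fewer arrays, and some rest on 1 or 2 livers a group. Over all tested genes the higher calls also fell, from 2088 to 928 (Alb-Cre, within chip 2) and from 1366 to 16 (Olig1-Cre, within chip 1). Between the Cre groups, 2 genes were called with sex as a covariate and 1 with males only (Ubd, 1.92); both settings set the Alb-Cre livers against Olig1-Cre 2 alone. With males only, lone livers are assumed to vary as the Alb-Cre livers do. The other settings gave 19 to 36 (Alb-Cre) and 18 to 29 (Olig1-Cre), with 0 lower. No value exists for males only, own-line controls or a joint fit in the comparison of the effects between lines, nor for own-line controls between the Cre groups. No paired analysis was possible because the labels carry no replicate numbers. The median change of the set moved by more than the spread between livers with arrays scaled to 1 median, to 1.65 and 1.47 against controls; in the comparison of the effects between lines it went from -0.0045 to 0.49, and to -0.51 within chip 2.

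Of 2460 log2 fold changes of named genes under alternatives, 180 lost and 46 gained the call, and 122 changed sign, in 41 of 108 results. Of the results that changed sign, only H2-Q10 in Olig1-Cre livers had passed the test as reported; the cause was not tested. All sign changes follow. In Olig1-Cre against control, the sign turned without background correction to 0.091 (Dtx3l). It turned with the cubic spline to 0.087 (Dtx3l). With arrays scaled to 1 median it turned to 0.52 (Tap2), 0.47 (Dtx3l), 0.39 (Irf9) and 0.077 (Ifna6). It turned without a detection filter to -0.14 (Ddx58) and 0.016 (Ifna6). With the brightest probe of a gene it turned to 0.40 (Dtx3l), 0.21 (Irf9) and -0.028 (Ifngr2). It turned within chip 1 to 0.022 (Tap2), -0.015 (B2m), -0.0074 (Tapbp), -0.0069 (Psme3) and -0.050 (Ifngr2). Within chip 2 it turned to 0.18 (Dtx3l). It turned with males only to -0.046 (Stat2), 0.32 (Tap2), 0.061 (Irf9), -0.16 (Tapbp), -0.11 (Psme3), -0.78 (H2-D1), 0.037 (H2-Q10) and -0.17 (Ifngr2). In Alb-Cre against control, the sign turned with arrays scaled to 1 median to 0.62 (Tap2), 0.46 (Dtx3l) and 0.73 (Irf9). It turned without a detection filter to -0.12 (Ddx58). With the brightest probe of a gene it turned to -0.19 (Zbp1), -0.046 (B2m), 0.19 (Dtx3l), 0.044 (Irf9), -0.076 (Irgm1) and -0.00055 (Ifngr2). It turned with sex as a covariate and with males only to 0.17 (Tap2). Within chip 1 it turned to 0.19 (Irf9). It turned within chip 2 to -0.056 (B2m), -0.0058 (Ddx58), -0.32 (Tapbp) and -0.080 (Ifnar2). With the controls of the own line it turned to 0.051 (Tap2) and -0.00062 (B2m). In Alb-Cre against Olig1-Cre, the sign turned with arrays scaled to 1 median to 0.14 (Dhx58), 0.024 (Oasl1), 0.021 (Tap1), 0.10 (Tap2), 0.0064 (B2m) and 0.080 (Irgm1). It turned with the brightest probe of a gene to 0.059 (Oasl1) and -0.17 (Irf9). With sex as a covariate and with males only it turned to 0.14 (Dhx58), 0.50 (Isg15), 0.45 (Oasl1), 0.21 (Rsad2), 0.14 (Gbp3), 0.61 (Psmb9), 0.049 (Psmb10), 0.31 (Ifit3), 0.018 (B2m), -0.12 (Ddx58), -0.074 (Irf9) and 0.055 (Irgm1). It turned within chip 1 to 0.12 (Dhx58), 0.093 (Isg15), 0.11 (Oasl1), 0.020 (Rsad2), 0.19 (Gbp3), 0.052 (Psmb9), 0.070 (Psmb8), 0.27 (Ifit3), 0.094 (B2m) and 0.19 (Irgm1). Within chip 2 it turned to -0.075 (Irf7), -0.11 (Stat2), -0.38 (Ubd), -0.11 (Ddx58), -0.15 (Irf9) and -0.44 (Tapbp).

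With 1 array left out, the ranges that crossed 0 in Alb-Cre against control were -0.0030 to 0.028 (B2m), -0.23 to 0.093 (Irf9), -0.13 to 0.37 (Tapbp) and -0.084 to 0.22 (Ifnar2). With 1 array left out, the ranges that crossed 0 in Alb-Cre against Olig1-Cre were -0.23 to 0.21 (Dhx58), -0.017 to 0.38 (Irf7), -0.38 to 0.57 (Ubd), -0.25 to 0.085 (Oasl1), -0.56 to 0.29 (Ifit3), -0.068 to 0.0044 (B2m), -0.060 to 0.11 (Ddx58), -0.033 to 0.29 (Irf9), -0.26 to 0.14 (Irgm1) and -0.19 to 0.31 (Tapbp). With 1 array left out, the ranges that crossed 0 in Olig1-Cre against control were -0.16 to 0.052 (Tap2), -0.092 to 0.026 (Dtx3l) and -0.0098 to 0.11 (Tapbp).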
